A study of Arabidopsis thaliana with 12 samples.

Results

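The 100 brightest single-gene probes of wild-type Arabidopsis thaliana are described here. The array holds 3439 probes, and 692 of them list exactly 1 gene in the platform's probe table. These 692 probes were ranked by their mean deposited intensity over 6 wild-type samples (WT 1 to WT 6), and the 100 highest, each of a different gene, were taken as members. The samples are total RNA of wild-type plants of ecotype Columbia 0. The labels used here give no tissue, age or growth condition, and they do not say whether the 6 samples came from separate plants. The series also holds 6 samples of the psak mutant, which were not used here.

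Membership was chosen by the WT intensities themselves, so the intensities and ranks of the members are a description and carry no test. An intensity is the authors' value for a probe on a linear scale from 0 to 100. It depends on how well each probe hybridises as well as on the amount of transcript, and no value here is per transcript length. The ranking is therefore one of probe intensity and not of transcript abundance. The probe table lists AT2G25870 on 2 probes, the only gene repeated among the 692, and these stood at rank 192 with an intensity of 0.562 ± 0.0963 and at rank 502 with 0.126 ± 0.0731 (SD, n = 6 each).

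In green plant cells, light-harvesting proteins pass excitation energy to photosystems II and I of the thylakoid membrane, which drive electrons from water to NADP. A chloroplast NADH dehydrogenase-like complex returns electrons from photosystem I to the membrane. Most subunits of these complexes that are encoded in the nucleus are made in the cytosol and imported into the chloroplast, and their transcripts are known to be among the most abundant of leaves. The organelles themselves rely on many nuclear-encoded RNA-binding proteins of the pentatricopeptide repeat and mTERF families.

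Signal was concentrated in few probes. Mean intensities of the 100 members ran from 74.7 at rank 1 to 1.0 at rank 100, a 74.4-fold span, with a median of 1.96, against a median of 0.215 for the other 592 single-gene probes. Only 5 members averaged above 20, 10 above 10 and 49 above 2. The widest step between neighbours lay below rank 5, where the mean dropped 2.64-fold, and the next widest lay below rank 21 at 1.43-fold. Of the 692 probes, 49 were at 0 in all 6 samples, while every member was above 0 in all 6. No member reached the top of the scale, and the highest value of any member was 87.7.

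The 100 members held 77.6% ± 3.46 of the summed intensity of the single-gene probes (SD, n = 6; 73.1% to 81.1% by sample), although they are 14.5% of these probes. The 5 highest alone held 38.7% ± 3.18 and the 25 highest 59.4% ± 3.81. The 100 probes that came next in rank held 9.96% ± 1.09. Against all 3439 probes of the array the 100 held 18.0% ± 0.481 and the 5 highest 8.99% ± 0.558. Most of the array's bright signal thus lay on probes that the table does not tie to 1 gene. Of the 100 brightest probes of the whole array, 21 list 1 gene, 17 list several and 62 are not in the probe table. Single-gene probes are 20.1% of the array, so their count among the brightest was near their share. The first member stood at rank 3 of all probes and the last at rank 519.

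**Figure D1:**
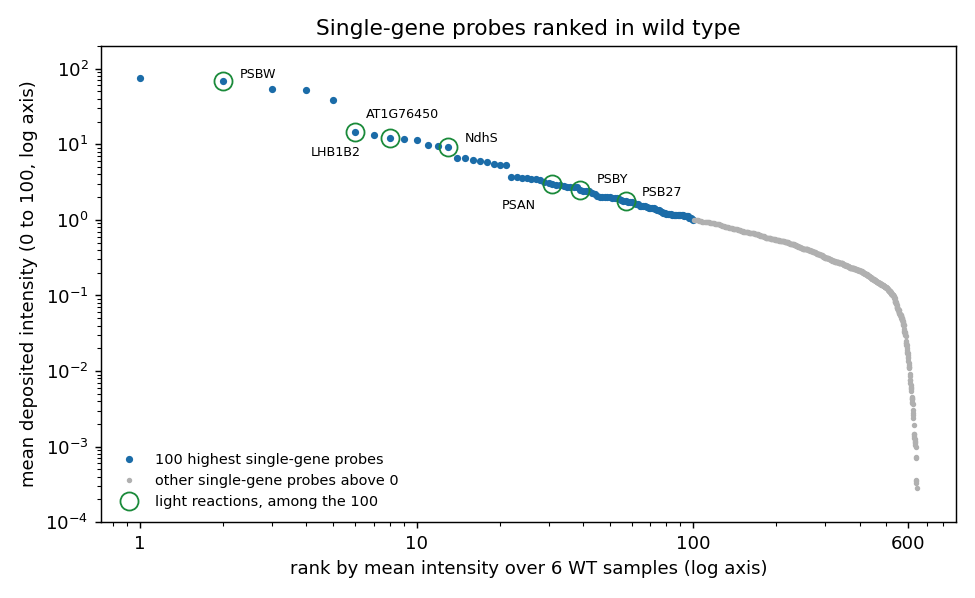
Mean deposited intensity over 6 WT samples (vertical log axis, scale 0 to 100) against rank (horizontal log axis) for single-gene probes above 0; each point is 1 probe, blue for the 100 members, grey for the others, with green rings on the 7 members of the light reactions. The curve drops 2.64-fold below rank 5 and passes 1.0 at rank 100.

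Functions were read from gene symbols and synonyms, which name a function for 16 of the 100 members and for 86 of the other 592 probes (14.5%). By these names, 6 members belong to the light reactions, 2 each to pigment and isoprenoid synthesis and to signalling and transcription, 1 to the synthesis of amino acids, nucleotides, cofactors and lipids, and none to gene expression. The other 592 probes hold 5 (0.845%), 3 (0.507%), 8 (1.35%), 8 (1.35%) and 6 (1.01%) of these lists in the same order. A further 27 members were given a role from general knowledge of the locus after the ranking was seen, and 57 were left without one. The other 592 probes were not read in this way, so counts that include such roles have no counterpart outside the 100. With them the light reactions and gene expression had 7 members each, signalling and transcription 6, the synthesis list 5, pigment and isoprenoid synthesis 3, and protein folding and transport 1 each. Another 13 have a named role outside these lists. By count no function held a majority. No member was placed in carbon metabolism or in redox and oxidative stress. AT1G06730, AT1G17160 and AT1G50390, of a pfkB-type carbohydrate kinase family, were counted among the 13 named otherwise. The absence of carbon metabolism depends on this placement.

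By signal the light reactions led the functional lists. Their 7 members held 19.1% ± 2.27 of the summed intensity of the 100 (SD, n = 6), followed by the single member of protein folding, AT4G17070, with 6.52% ± 2.56. The 7 members of gene expression held 4.32% ± 0.319, the 6 of signalling and transcription 3.76% ± 0.145, the 5 of the synthesis list 1.64% ± 0.523, the 3 of pigment and isoprenoid synthesis 0.890% ± 0.0951 and the single member of transport 0.247% ± 0.0391. PSBW alone held 11.7% ± 2.04, and the other 6 genes of the light reactions 7.45% ± 0.285. The 13 members with a named role outside these lists held 7.63% ± 0.316, and the 57 members without a list 55.8% ± 4.08.

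PSBW, a small membrane subunit of photosystem II, was the highest-ranked member of the light reactions, at rank 2. Its intensity was 87.7 and 83.1 in WT 1 and 2, 68.9 and 67.2 in WT 3 and 4, and 49.2 and 51.1 in WT 5 and 6. Samples with neighbouring numbers were close, and the 3 pairs of samples did not overlap. LHB1B2 (LHCB1.5), a major antenna protein of photosystem II, was at rank 8 with 16.8 and 15.5 in WT 1 and 2, 12.0 and 11.4 in WT 3 and 4, and 8.13 and 8.55 in WT 5 and 6. It had the same order of sample pairs as PSBW. Several LHCB1 genes are nearly identical in sequence, and whether its probe is specific was not tested.

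PSBY, another small subunit of photosystem II, stood at rank 39 with 3.16 and 3.01 in WT 1 and 2, 2.57 and 2.63 in WT 3 and 4, and 1.73 and 1.78 in WT 5 and 6. PSAN, a photosystem I subunit of the thylakoid lumen that helps plastocyanin to dock, was at rank 31 with 3.60 and 3.61, 3.46 and 3.35, and 1.85 and 1.93 in the same 3 pairs. In both genes WT 5 and 6 lay below the other 4 samples. Like PSBW and LHB1B2, they averaged highest in WT 1 and 2 and lowest in WT 5 and 6.

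The other 3 genes of the light reactions did not share this order. NdhS, the subunit of the NADH dehydrogenase-like complex that takes part in binding ferredoxin, was at rank 13 with 9.65, 10.2, 7.72, 8.10, 9.80 and 9.28 in WT 1 to 6, so that only WT 3 and 4 stood lower. The listed locus AT1G76450, which encodes a PsbP-domain protein of the thylakoid lumen, was at rank 6. It read 12.5 in both WT 1 and 2, 14.4 and 14.5 in WT 3 and 4, and 16.7 and 16.6 in WT 5 and 6, which is the reverse of PSBW.

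PSB27, a lumenal factor of photosystem II assembly and repair, was the least steady member of all 100. It read 3.73 and 3.69 in WT 1 and 2, 0.577 and 0.267 in WT 3 and 4, and 1.37 and 1.0 in WT 5 and 6. Its mean over WT 1 and 2 was 8.78 times that over WT 3 and 4, and its rank moved between 27 in WT 1-2, 236 in WT 3-4 and 97 in WT 5-6. Its rank of 57, by the mean intensity over all 6 samples, describes none of the 3 pairs.

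**Figure D2:**
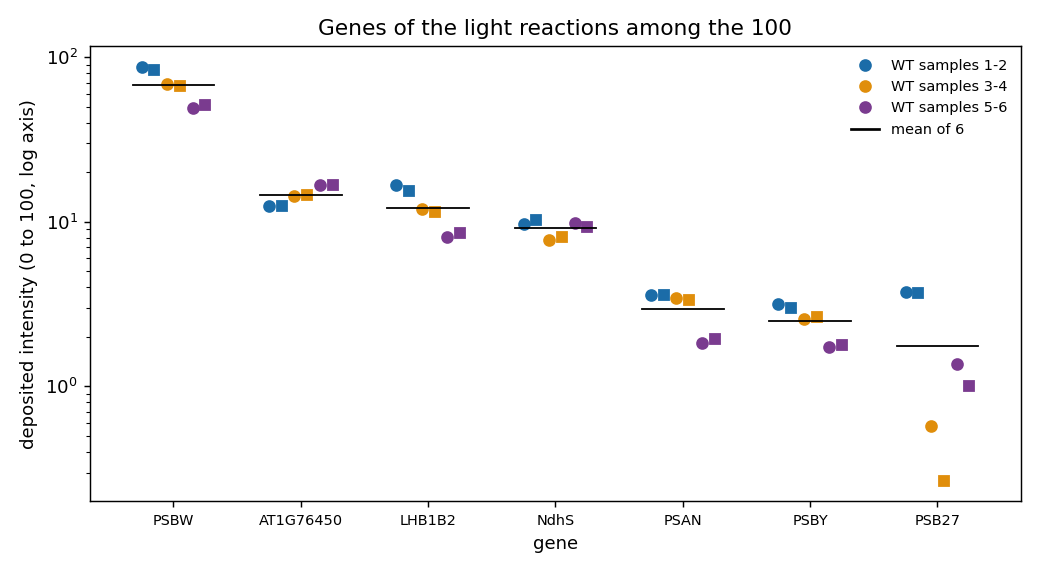
Deposited intensity (log axis, scale 0 to 100) of the 7 light-reaction genes among the 100 members, 1 point per WT sample, coloured by sample numbers 1-2, 3-4 and 5-6 (circle for the first of each, square for the second), with a bar at the mean of 6. PSBW, LHB1B2, PSAN and PSBY are highest in WT 1-2 and lowest in WT 5-6, AT1G76450 runs the other way, and PSB27 is lowest in WT 3-4.

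For 4 of the 7 light-reaction genes, WT 5 and 6 lay below the other 4 samples, and for 1 they lay above. Among all 100 members 25 had WT 5 and 6 below the other 4, against 5.06% of all single-gene probes, and 30 had them above, against 34.7%. The order WT 1-2 over 3-4 over 5-6 was seen in 4 of the 7 and in 22 of the 100. It was assigned to 135 of all 692 single-gene probes (19.5%). These 135 include the 49 probes at 0 in all 6 samples, whose tied means were placed in number order. The share of probes that truly show this order is therefore lower than 19.5%. The same 49 probes count in the totals behind 5.06% and 34.7%, though they can meet neither condition. Under scaling to equal sums WT 5-6 was still the lowest pair for 4 of the 7, but the full order held for 3, because PSAN then averaged 3.34 scaled units in WT 1-2 and 3.63 in WT 3-4. Under quantile normalization WT 5-6 was again lowest for 4, and the full order held for LHB1B2 and PSBY only, since PSBW and PSAN were then higher in WT 3-4 than in WT 1-2. These are counts without a test.

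The other 5 possible orders of the pair means also occurred among the 100. WT 5-6 over 3-4 over 1-2, the order of AT1G76450, was seen in 21 members, against 32.4% of all single-gene probes, and WT 5-6 over 1-2 over 3-4 in 19, against 23.1%. WT 1-2 over 5-6 over 3-4, the order of NdhS and PSB27, was seen in 17, against 10.5%. WT 3-4 over 1-2 over 5-6 was seen in 13, against 5.64%, and WT 3-4 over 5-6 over 1-2 in 8, against 8.82%. The 49 probes at 0 in all 6 samples count in the total of these shares but in none of these orders.

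By gene table names, 5 single-gene probes of light-reaction genes stood outside the 100, against 6 inside, and probes with no name in the tables were not searched there. NdhN, another subunit of the NADH dehydrogenase-like complex, and CRR41, a factor needed for that complex, were listed at 0 in all 6 samples. PIFI, CCB3 and LPA19, which act in chloroplast electron flow, cytochrome b6f assembly and photosystem II assembly, were at ranks 239, 421 and 496 with means of 0.445, 0.191 and 0.130. Their values in single samples ran from 0 to 0.638. The 4 subunits of the photosystems and their antenna on the list, PSBW, PSBY, PSAN and LHB1B2, were among the 100.

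Pigment and isoprenoid synthesis had 3 members. AT1G74470, geranylgeranyl reductase, which makes the phytyl chain of chlorophyll and tocopherol, was at rank 30 with 4.39, 3.53, 2.87, 3.02, 2.47 and 2.14 in WT 1 to 6. It was highest in WT 1 and 2 and lowest in WT 5 and 6, as were PSBW and LHB1B2, but the other 2 members did not share this order. HEMA3, of the glutamyl-tRNA reductase family that opens tetrapyrrole synthesis, stood just inside the list at rank 98 with 1.05 ± 0.220, and averaged highest in WT 5-6 and lowest in WT 3-4. AT1G78620, a phytyl phosphate kinase of tocopherol synthesis, was at rank 99 with 1.03 ± 0.248, and averaged highest in WT 1-2 and lowest in WT 3-4. Outside the 100, Z-ISO of carotenoid synthesis was at rank 245, CHLM of chlorophyll synthesis at rank 402 and SIRB of siroheme synthesis at rank 482.

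The 7 members of gene expression all act, or are thought to act, on RNA or translation in organelles. The highest was the probe listed for AT3G26630, a pentatricopeptide repeat protein, at rank 11 with 11.6 and 11.2 in WT 1 and 2, 10.2 and 9.12 in WT 3 and 4, and 8.49 and 8.11 in WT 5 and 6. AT5G65220, a plastid ribosomal protein of the L29 family, was at rank 25 with 3.58 ± 0.770. AT1G12800, with an S1 RNA-binding domain, and AT1G01080, with an RRM domain, followed at ranks 26 and 27 with 3.49 ± 0.939 and 3.45 ± 0.504. In AT5G65220 and AT1G12800 WT 5 and 6 lay below the other 4 samples, while AT1G01080 was lowest in WT 1 and 2 at 2.72 and 2.90. The pentatricopeptide repeat genes AT2G19280 and AT4G21170 were at ranks 53 and 71 with 1.92 ± 0.277 and 1.42 ± 0.308, and the mTERF gene AT1G62150 at rank 85 with 1.17 ± 0.288. All 7 were among the 100 highest in each of the 3 sample pairs.

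The very brightest member has no role given here. AT2G27290 led the ranking with 71.2, 76.3, 75.1, 74.7, 77.8 and 72.9 in WT 1 to 6, and its coefficient of variation of 3.14% was the lowest of the 100. AT4G22830 at rank 3 read 62.6 and 60.9 in WT 1 and 2 and 58.8 and 62.9 in WT 5 and 6, but 41.4 and 40.2 in WT 3 and 4. AT4G31530 at rank 4 stayed between 48.1 and 55.4. AT4G17070, of the peptidyl-prolyl isomerase family that assists protein folding, completed the first 5 and was the most scattered of them, with 62.4 and 55.8 in WT 1 and 2, 30.8 and 31.5 in WT 3 and 4, and 14.4 and 35.7 in WT 5 and 6. These 5 were the 5 highest in each sample pair.

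Below them, AT5G38360, AT2G46220 and AT4G19900 at ranks 7, 9 and 10 averaged 13.2, 11.7 and 11.5. AT5G38360 read 9.19 and 9.30 in WT 5 and 6 and at least 14.1 in each other sample. AT4G19900, of a glycosyltransferase family, was steady with a coefficient of variation of 8.94%. AT2G46220 had its lowest value, 6.63, in WT 3 and at least 12.6 in WT 1, 2, 5 and 6.

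CCL, a transcript under circadian control, was at rank 12 with 9.93, 11.9, 9.02, 8.63, 8.52 and 9.29 in WT 1 to 6, and it held rank 12, 11 and 11 in the 3 sample pairs. AT4G32060, which encodes a calcium-binding regulator of mitochondrial calcium uptake, was at rank 15 with 6.58 ± 0.989. AT5G40030, a protein kinase, was at rank 18 with 5.90 ± 0.814, and AT3G06200, a guanylate kinase of nucleotide synthesis, at rank 23 with 3.68 ± 0.612. AT1G16080, AT1G73120 and AT1G51350, with no role given here, were at ranks 14, 16 and 21, and their coefficients of variation of 5.24%, 5.59% and 6.33% were low. AT5G50350, AT3G52070, AT4G18180 and AT3G04650 at ranks 17, 19, 20 and 22 had larger coefficients of 23.0%, 19.9%, 30.1% and 17.1%.

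PRA1.B6, a vesicle-trafficking protein of the prenylated Rab acceptor family, was the most variable by rank of the 25 highest. It read 5.05 and 5.42 in WT 1 and 2, 3.81 and 4.09 in WT 3 and 4, and 1.65 and 1.66 in WT 5 and 6. It ranked 20, 23 and 64 in these pairs.

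**Figure D3:**
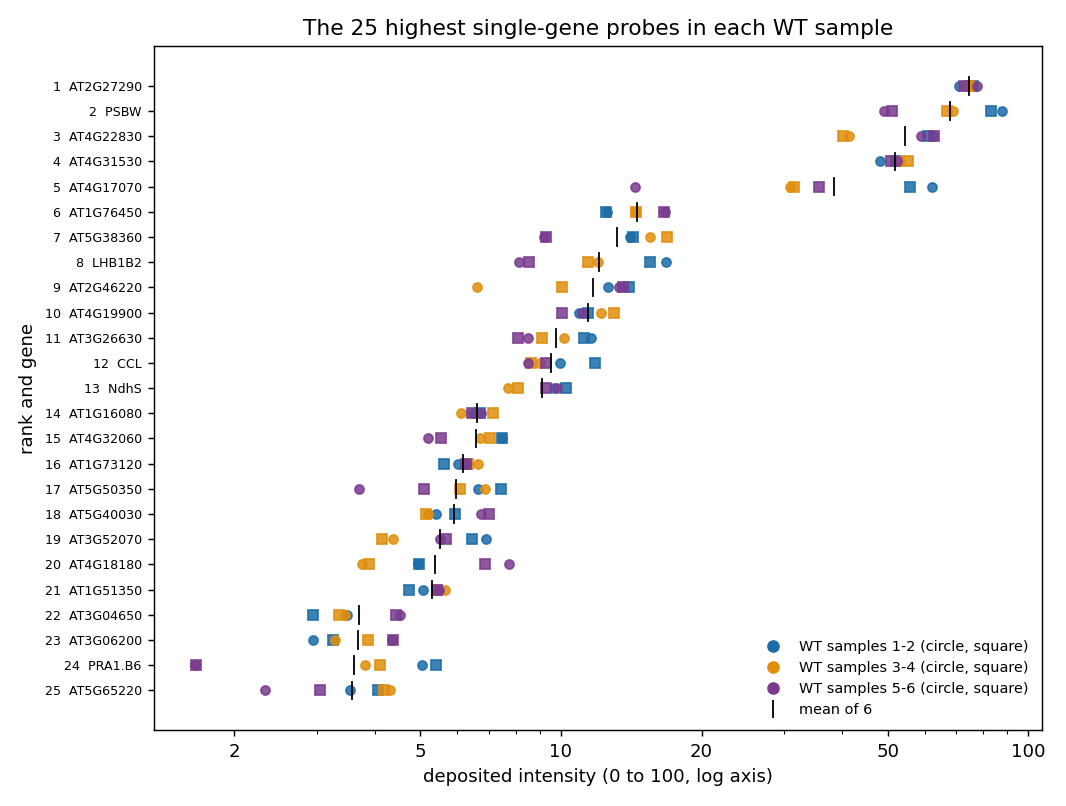
Deposited intensity (log axis, scale 0 to 100) of the 25 highest members in each of 6 WT samples; rows are genes in rank order, colours are sample numbers 1-2, 3-4 and 5-6, and the black bar is the mean of 6. AT2G27290 varies least, and PRA1.B6 drops to 1.65 and 1.66 in WT 5 and 6.

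Genes of carbon metabolism and redox control, by gene table names, stood outside the 100. Members are 14.5% of all single-gene probes, so lists of 5 and 4 probes could miss the 100 easily. Their absence was not tested. Of 5 single-gene probes for carbon metabolism, ATSPS4F, a sucrose phosphate synthase, was highest at rank 120 with 0.891 ± 0.0957. PRK, the phosphoribulokinase of the Calvin cycle, was at rank 134 with 1.62 in WT 1 and 0.516 to 0.896 in the other 5. PPDK was at rank 195 and the NADP-dependent malate dehydrogenase AT5G58330 at rank 333. SBPASE, the sedoheptulose-bisphosphatase of the same cycle, was listed at 0 in all 6 samples. Of 4 redox genes, NTRC, the chloroplast thioredoxin reductase, was highest at rank 244 with 0.434 ± 0.0763, and CCS, SRX and GLDH were at ranks 364, 453 and 522. The genes of these lists were named after their values were seen. Of 13 marker names of green leaf, only those of LHB1B2 and PSAN matched a single-gene probe, and none of 8 seed, 7 flower or 6 root marker names did, so the tissue was not checked further.

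Membership was steady over sample numbers 1-2, 3-4 and 5-6. Ranked by the mean of 1 such pair alone, 91, 94 and 90 of the 100 members were among that pair's own 100 highest. In all 3 pairs this held for 79, in exactly 2 for 17 and in 1 for 4. Any 2 pairs shared 88 (1-2 and 3-4), 82 (1-2 and 5-6) or 86 (3-4 and 5-6) of their 100 highest. In all, 123 probes were among the 100 highest of at least 1 pair, of which 23 are not members. Since each pair is part of the mean that chose the members, the first counts are a description, while the overlap of 2 pairs sets samples against others that did not choose them.

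Ranks moved more among the lower members. All of the members ranked 1 to 25 were among the 100 highest in every pair, as were 24 of the 25 ranked 26 to 50, 21 of the 25 ranked 51 to 75, and 9 of the 25 ranked 76 to 100. The median distance between a member's best and worst rank over the 3 pairs was 4 for ranks 1 to 25, 16 for ranks 26 to 50 and again for ranks 51 to 75, and 34 for ranks 76 to 100. It was 52.5 for the 100 probes next in rank. These counts describe ranks and not intensities: a member far above rank 100 has further to go to leave the list, and intensities lie closer together at lower ranks. By intensity, the median coefficient of variation was 16.6% for the 100 and 18.9% for the 100 probes next in rank. Of the 25 highest, 21 were among the 25 highest in all 3 pairs, and the exceptions were AT3G04650, AT3G06200, PRA1.B6 and AT5G65220.

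RAP74, a subunit of the general transcription factor TFIIF, held rank 30 in each pair, with a lowest intensity of 2.81 in WT 5 and a coefficient of variation of 7.35%. AT2G27290, AT4G17070 and CCL moved by 1 rank. AT4G22830 moved by 2, as did AT4G31530, AT1G16080, AT1G73120, CML30, AT2G19280, AT5G62840 and AT3G50350. Apart from PSB27, the widest moves were those of AT5G10920, AT2G28540, AT1G32730 and AT3G44570. AT5G10920, which encodes argininosuccinate lyase of arginine synthesis, read 0.700 and 0.863 in WT 1 and 2, 1.29 and 1.65 in WT 3 and 4, and 3.90 and 3.69 in WT 5 and 6. Its rank was 135, 66 and 25 in these pairs. AT3G44570, with no role given here, also stood highest in WT 5-6, at rank 39, against 110 in WT 1-2. AT2G28540 and AT1G32730 were lowest in WT 5-6, at ranks 156 and 147. AT-HF, an enzyme of histidine synthesis named after its values were seen, read 2.06 and 1.99 in WT 5 and 6 and at most 1.11 in the other 4. Of the 5 members of the synthesis list, 3 averaged highest in WT 5-6 and 2 in WT 1-2. Of all single-gene probes, including 49 at 0 in all 6 samples, 55.5% averaged highest in WT 5-6.

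**Figure D4:**
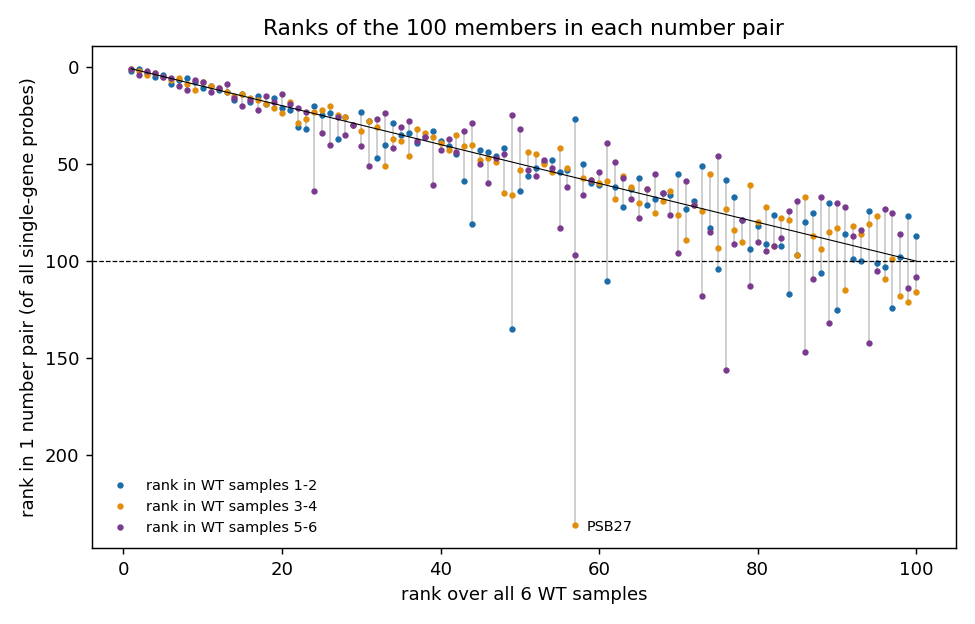
Rank of each of the 100 members among 692 probes in sample numbers 1-2, 3-4 and 5-6 (vertical axis, rank 1 at the top) against its rank over all 6 WT samples; grey lines span the 3 pairs, the dashed line marks rank 100 and the solid line equal ranks. The spread widens toward rank 100, and PSB27 falls to rank 236 in WT 3-4.

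Across the 100 members, Spearman's correlation of ranks was 0.887 between WT 1-2 and 3-4, 0.764 between WT 1-2 and 5-6, and 0.864 between WT 3-4 and 5-6. Over all 692 single-gene probes it was 0.934, 0.919 and 0.952. These are correlations across probes measured on the same arrays, are given without a p-value, and the 100 cover only a part of the range of all single-gene probes. Among the 692, tied probes at 0 were ordered by probe number in every pair, which can raise the correlation. With only probes above 0 in all 6 samples, the lowest of the 3 correlations was 0.883 in place of 0.919. On the log2 scale, Pearson's correlation of pair means across the 100 was 0.950, 0.914 and 0.939.

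For the 100 members, samples of a number pair were closer to each other than to the rest. Over the 100 members, the SD of the log2 difference between 2 samples was 0.17 to 0.22 within the 3 number pairs and 0.44 to 0.65 for the 12 other combinations of samples. For 425 other single-gene probes above 0 in all samples it was 0.64 for WT 3 and 4 and 0.67 for WT 5 and 6, against 0.71 or more for the 12 other combinations. WT 1 and 2 were not closer there by this SD, at 1.19 between them. The SD was 0.90 to 0.96 between WT 1 and each of WT 3 to 6. It was 1.16 to 1.19 between WT 2 and each of these. The median absolute deviation of the log2 difference from its own median was also taken for these probes. It was 0.415 between WT 1 and 2, and 0.421 to 0.518 between either of them and WT 3 to 6. The 0.421, between WT 2 and 4, was nearly equal to the 0.415. For 55 of the 100 members the 3 pairs did not overlap at all, against 25.6% of all single-gene probes. That total includes the 49 probes at 0 in all 6 samples, whose pairs cannot separate. The members are also the brightest probes and had the smaller spread, with a median coefficient of variation of 16.6% against 37.5% for the other single-gene probes. What the samples of a number pair share is not given in the labels, and the part of extraction, array or day was not tested. The labels leave it possible that both samples of a pair are repeat arrays of 1 RNA, in which case the independent samples behind each SD would number 3 and not 6.

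The pairs also differed as wholes. Summed intensity over all probes was 3439 to 3460 in WT 1 and 2, 2967 to 3019 in WT 3 and 4, and 3116 to 3149 in WT 5 and 6, and 13.8% to 16.5% of the probes of a sample were at 0. The share of single-gene intensity held by the 100 was 80.8% and 81.1% in WT 1 and 2, 78.6% and 78.2% in WT 3 and 4, and 73.1% and 73.7% in WT 5 and 6. Of the members, 40 averaged highest in WT 5-6 against 55.5% of all single-gene probes, and 35 lowest there against 25.1%. The 49 probes at 0 in all 6 samples were counted as lowest in WT 5-6 only because tied means were placed in number order. The 25.1% therefore overstates the share that was truly lowest there. With these 49 in its total, the 55.5% understates the share among probes with any signal. The highest pair mean was at least 2 times the lowest for 9 members and at most 1.2 times for 22. Ranks are taken within a sample pair, so a common scale factor does not change them.

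The border at rank 100 separated probes of nearly equal intensity. The last 5 members, AT3G09250, AT1G50390, HEMA3, AT1G78620 and AT1G15410, averaged 1.11, 1.07, 1.05, 1.03 and 1.0, and the next 5 probes, AT4G23080, AT4G13680, AT1G21500, AT3G44050 and AT2G21720, averaged 1.0, 1.0, 0.990, 0.983 and 0.981. SDs were 0.134 to 0.309 among the last 5 members and 0.0538 to 0.364 among the next 5, with the smallest for AT3G44050. AT3G44050, at rank 104, was among the 100 highest in 2 of 3 pairs, whereas AT3G09250, AT1G78620 and AT1G15410 were so in 1.

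The members lay on all 5 chromosomes. By locus name, 23 of the 100 lie on chromosome 1, 17 on chromosome 2, 21 on chromosome 3, 19 on chromosome 4 and 20 on chromosome 5, against 25.5%, 18.1%, 18.4%, 17.1% and 20.8% of the other probes that carry a locus name. RefSeq annotates a single transcript for 65 of the 100 members and for 59.2% of the others. These shares were not tested.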

How the data were processed

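Total RNA of 6 WT samples of Arabidopsis thaliana was measured on arrays. The authors deposited 1 linear intensity for each probe in every sample, running between 0 and 100 as the table's values show. The sources used here do not give their scanning, background correction or scaling. No further normalization was applied before ranking. Genes were taken from the platform's probe table, and 690 of 692 single-gene probes matched a locus of the RefSeq annotation of TAIR10.1. No coordinates are given, because no build is named for the array. Names were not checked against probe sequences.

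Probes were ranked by the mean over WT samples, and again within sample numbers 1-2, 3-4 and 5-6. Ties in rank were broken by probe number, and tied pair means were placed in number order. No test was run. Members, lists and the rule for named genes were chosen with earlier results of these data known. The named genes are the 25 highest members, all members of the light reactions, pigment, carbon, gene expression and redox lists, the last 5 members and the 5 probes after them, and the 5 widest and 5 narrowest moves of rank (ties taken in rank order). Function lists came from keywords in gene symbols and synonyms, with corrections by hand. Roles of 27 further members come from general knowledge of the locus and were added after the ranking was seen. Sequence features were planned and are not analysed here. The ranking was checked on simulated data. Alternatives were other summaries, scalings and filters, and samples or sample pairs left out. Python 3.11.15, pandas 2.3.3 and matplotlib 3.10.9 were used. The number of samples limits the precision.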

Additional observations from a re-analysis of the deposited data

Results flagged for a closer look

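Of 69 sets of 6 WT values, from the genes described and 3 measures of whole samples, 3 held a sample whose gap to the nearest other, over the whole range, exceeded Dixon's critical value. Chance alone gives about 1 such set in 20. None is a member of the 100. PRK read 1.62 in WT 1 and at most 0.896 in the other 5, a gap of 0.655 of the range. CCS, the copper chaperone of superoxide dismutase, read 0.721 in WT 2 and at most 0.201 in the other 5, a gap of 0.838. CCB3 read 0.458 in WT 1 and at most 0.178 in the other 5, a gap of 0.695. For many members both samples of a number pair were extreme together, and such samples hide each other from this measure.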

How the results depend on the processing

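The list of 100 changed little. By the median, by mean log2 with zeros missing, by mean rank, after scaling to equal sums, after quantile normalization, with only probes above 0 in all samples, or with probes of 1 gene averaged, 97 to 100 members were shared with the reported list. With 1 WT sample left out, 98 to 99 were shared, and without WT 5 and 6, an alternative added once the data had been seen, 97. The number among the 100 highest in all 3 sample pairs ran from 76 to 79 over 13 alternatives, and the lowest Spearman correlation between pairs, over all single-gene probes, from 0.872 to 0.923. The light reactions had 6 or 7 members in each of 17 alternatives. This is a weak check, because most members were shared and roles given by hand cover only the reported 100. A probe that entered could count only through its gene table name. A gene of carbon metabolism entered the 100 in 1 alternative, WT 1-2 alone. By gene table names alone, gene expression had 0 members in place of 7. The share of single-gene intensity held by the 100 was 81.2% from WT 1-2 alone, 73.8% from WT 5-6 alone, and, added later, 63.6% without the 5 highest members. For the light reactions list by gene table names, the share was 6% of the 100, 1.59% of all single-gene probes and 0.845% of the others. The number of members whose pairs did not overlap was 59 after scaling to equal sums and 44 after quantile normalization. No paired analysis was possible because a single genotype was ranked and no result comes from a test.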
